A study of Mus musculus with 3 samples.

Results

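The members of the solute carrier (SLC) superfamily expressed in mouse bone marrow-derived dendritic cells were followed in 3 RNA libraries. Members were the rows of the deposited table whose symbol began with Slc and a digit and whose mean linear value over the 3 libraries was at least 18. Of 37991 rows, 360 had such a symbol and 198 reached the minimum. Another 10 carriers of iron, arginine, cystine, glucose, lactate and zinc were left out by name, which left 188 members. They carried 187 distinct symbols, since Slc38a9 had a row under each of 2 identifiers. The members were chosen by their mean level over all 3 libraries, so no test of that level is given. Of the members, 184 reached the minimum in each library separately. Just inside the minimum lay Slc25a27, with a mean linear value of 18.7, and Slc16a5, with 19.5. Just outside lay Slc13a2, with 15.6, and Slc9a2, with 15.3. Of the 162 rows below the minimum, 83 had 0 reads in all libraries. Among the 188 members, 6 name other genes and no carrier (the scaffolds Slc9a3r1 and Slc9a3r2, the neighbours Slc7a6os and Slc4a1ap, and the pseudogenes Slc39a1-ps and Slc2a4rg-ps), which leaves 182 carriers.

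The first group was treated with 800 ng/ml of rATB, the recombinant B chain of articulatin, a ribosome-inactivating protein of mistletoe. The second was given buffer, with a dose label of 1 ng/ml whose meaning is unclear, and the third was an untreated control. All 3 were primary cells grown from mouse marrow with granulocyte-macrophage colony-stimulating factor, collected as non-adherent cells on day 6. Treatment lasted 48 h. The sources used here give no strain, age or number of animals. Each group was a single library, so differences have no replicate check, and neither a test nor a p-value is given.

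Solute carriers are membrane proteins that move amino acids, sugars, nucleosides, ions, metals, vitamins and lipids across cell and organelle membranes. Many draw on the sodium or proton gradient, others exchange one solute for another or let it follow its gradient. In dendritic cells, amino acid and sugar carriers feed activation and antigen processing. Some carriers of the endosome and lysosome influence the acidity of these compartments, and others return digestion products to the cytosol.

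The libraries held 15203139 reads in rATB cells, 16105080 in buffer cells and 17776492 in control cells. A level is a number of scaled reads for every 1000000 reads in control cells, here called units. A unit stood for 15.7 reads in rATB cells, 17.1 in buffer cells and 17.8 in control cells. Ratios carry an exact 95% interval for counting error alone, and reads made by PCR are not independent molecules. The dendritic cell marker Itgax was at 981 units in rATB cells, 1213 in buffer cells and 1200.0 in control cells, and Zbtb46 at 38.8 units in rATB cells, 38.1 in buffer cells and 35.1 in control cells. Over the 9 rows of the 8 dendritic cell markers the sum was at 9366 units in rATB cells, 11689 in buffer cells and 14101 in control cells, with 5 rows highest and 4 lowest in rATB cells. Cd74 alone made up 6059 of these units in rATB cells, 8533 in buffer cells and 10811 in control cells. Without it the sum was at 3307 units in rATB cells, 3155 in buffer cells and 3290 in control cells. Cd86, Ccr7 and Flt3 were highest in rATB cells, and H2-Ab1 was lowest. The sum of the 7 macrophage markers found was at 1448 units in rATB cells, 1616 in buffer cells and 2182 in control cells, and 4 of them, C1qa, C1qb, C1qc and Emr1 (now Adgre1), were lowest in rATB cells. The others did not follow them. Mertk was highest in rATB cells, at 51.7 units in rATB cells, 43.4 in buffer cells and 44.2 in control cells. Cd68 was at 515 units in rATB cells, 406 in buffer cells and 515 in control cells, and Fcgr1 at 99.1 units in rATB cells, 87.4 in buffer cells and 119.6 in control cells. The part of macrophages in the differences below was not tested, and fewer cells of a type cannot be told apart from less RNA per cell. The sum of the 8 neutrophil markers was at 40.7 units in rATB cells, 39.2 in buffer cells and 46.6 in control cells. Of the 5 mast cell and basophil markers, Gata2 held nearly all reads, at 37.5 units in rATB cells, 38.9 in buffer cells and 40.2 in control cells. Fcer1a and Mcpt8 had 0 reads, and Cpa3 and Ms4a2 had at most 3 in any library. The sums of the T cell, B cell, erythroid and fibroblast markers stayed below 1 unit in every library, with Cd3e, Ms4a1 and Col3a1 at 0 reads.

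The members took a like share of each library, 1.04% of the reads in rATB cells, 1.05% in buffer cells and 1.07% in control cells. Their median level was 28.8 units in rATB cells, 27.1 in buffer cells and 29.9 in control cells, and the highest member, Slc6a6, was at 576 units in rATB cells, 560.0 in buffer cells and 638 in control cells. To set levels of different genes side by side, units were divided by exon length, which was known for 187 members. Per 1000 exonic bases, Slc25a5 stood highest, at 145 units in rATB cells, 156 in buffer cells and 162 in control cells. It encodes an exchanger of ADP and ATP in the inner mitochondrial membrane. Close copies of this gene in the genome can take or lend reads, so its level is uncertain. Next per length came Slc48a1, a heme carrier of the lysosome, at 100.3 units in rATB cells, 91.7 in buffer cells and 92.2 in control cells. Slc25a4, another ADP and ATP exchanger, was at 102 units per 1000 bases in rATB cells, 85.6 in buffer cells and 87.7 in control cells. Slc3a2, the heavy chain that brings many amino acid carriers to the cell surface, stood at 97.6 units per 1000 bases in rATB cells, 83.6 in buffer cells and 86.9 in control cells. Slc15a3, a carrier of peptides and histidine in the lysosome, was at 81.7 units per 1000 bases in rATB cells, 75.8 in buffer cells and 86.5 in control cells. Among the 10 highest per length, Slc2a6 differed most between libraries. It was at 32.5 units per 1000 bases in rATB cells, 70.4 in buffer cells and 82.2 in control cells.

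**Figure D1:**
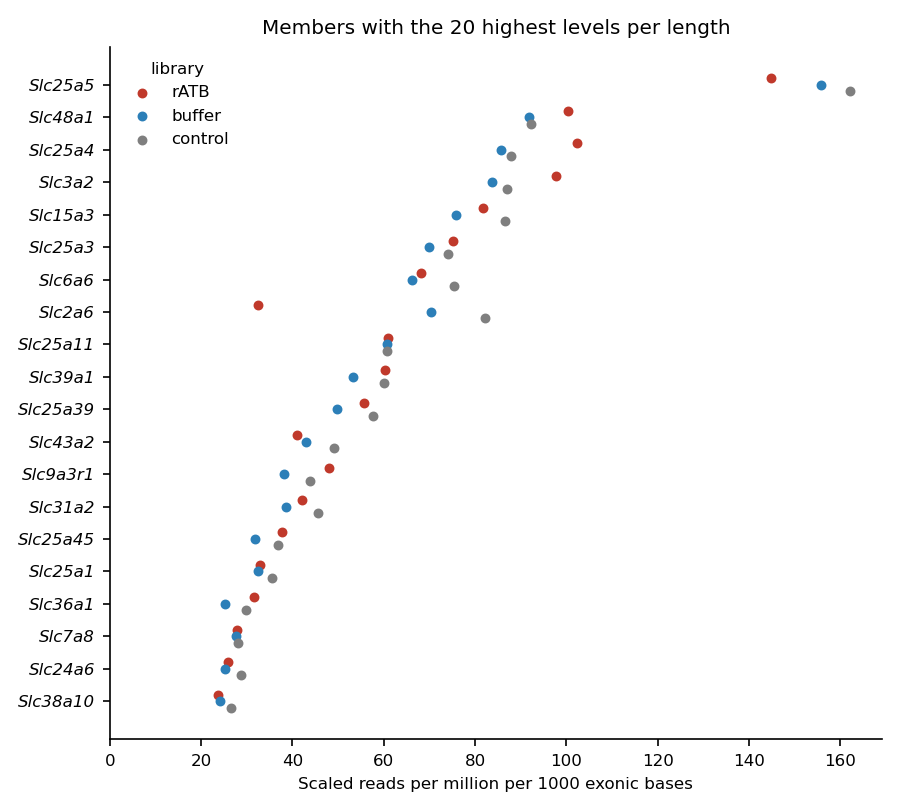
Levels of the 20 members that were highest per length, in scaled reads per 1000000 reads per 1000 exonic bases on the x axis, with 1 point for each library (rATB, buffer, control). For most members the 3 points lie close together, while for Slc2a6 the rATB point lies at 32.5, left of buffer at 70.4 and control at 82.2.

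A member was called where log2(value + 1 unit) differed by at least 1 between 2 libraries, a scale that understates the change of low genes. Against buffer, 1 member was called higher in rATB cells, Slc1a2, and 1 lower, Slc2a6. Over all 12561 rows past the same minimum, 0.9% were called higher and 0.669% lower. Counting both directions, 1.06% of members were called and 1.57% of all rows, a share near the background. Against the control, 1 member was called higher, Slc1a2, and 3 lower, Slc2a6, Slc9a9 and Slc16a10. The shares over all rows were 0.947% higher and 0.884% lower. Counting both directions, 2.13% of members and 1.83% of all rows were called. Between buffer and control, 0 members were called in either direction, and over all rows 0% were called higher and 0.0557% lower. Both comparisons of rATB share the rATB library, so their calls are not independent.

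Small differences were more common than calls. The median difference over the members was 0.03 between rATB and buffer, -0.07 between rATB and control and -0.08 between buffer and control, all on the log2 scale. The first of these changed sign, to -0.004, and the last, to 0.004, where each library was scaled to its own total. Over all rows the median was -0.0024 between rATB and buffer, -0.06 between rATB and control and -0.05 between buffer and control. Of the members, 90.4% lay within 0.5 of equality between rATB and buffer, and of all rows 90.8%. The differences of rATB from buffer had a standard deviation of 0.31 over members and 0.32 over all rows. For rATB against the control these were 0.36 and 0.33. By the counting intervals, 44 members were above buffer in rATB cells and 29 below it, or 23.4% and 15.4%, against 19.6% and 20% of all rows. Against the control, 31 were above and 64 below, or 16.5% and 34.0%, against 14.5% and 27.4% of all rows. Where each library was scaled to its own total, 38 were above the control and 47 below. Set against both other libraries together, 25 members were higher in rATB cells and 25 were lower. Over all rows these shares were 11.4% and 15.4%, against 13.3% of members each. In the order of the 3 libraries, rATB was the highest in 71 members (37.8%, against 33.3% of all rows) and the lowest in 74 (39.4%, against 44.1%). Buffer was the highest in 25 (13.3%, against 22.7%) and the lowest in 81 (43.1%, against 35.7%), but the lowest in 52 where each library was scaled to its own total. The control was the highest in 92 (48.9%, against 44%) and the lowest in 33 (17.6%, against 20.2%).

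**Figure D2:**
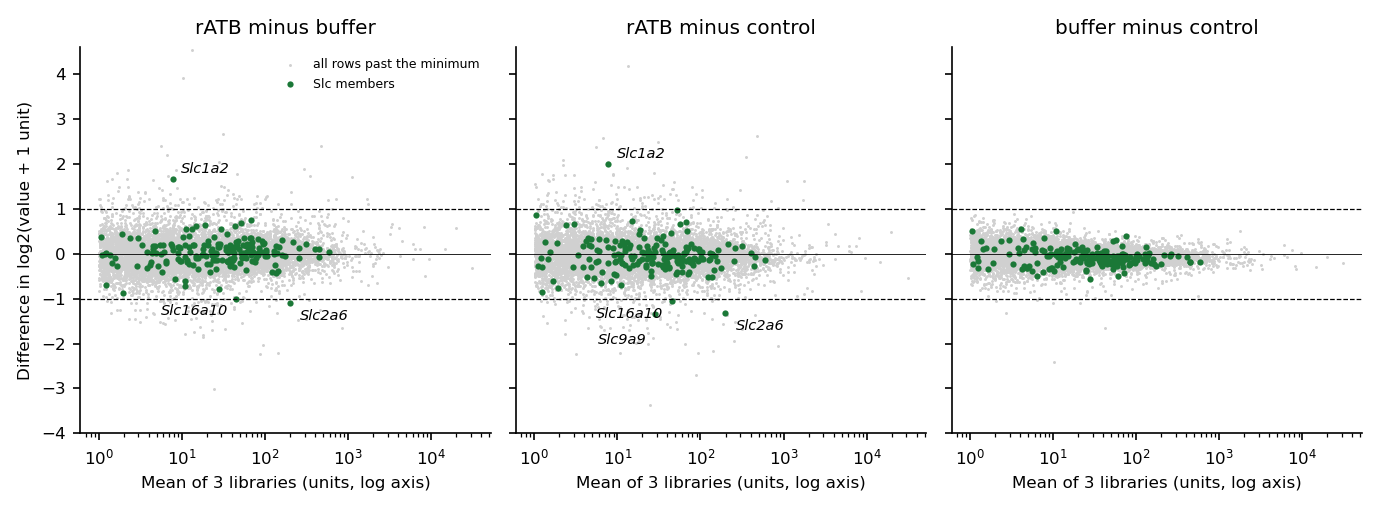
Difference in log2(value + 1 unit) on the y axis against the mean level in units on a log x axis, for the 188 members in green over the 12561 rows past the minimum in grey, in 3 panels for the 3 pairs of libraries. Dashed lines mark a difference of 1. Slc1a2 lies above the upper line and Slc2a6 below the lower line in both comparisons of rATB, and no member lies outside the lines between buffer and control.

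Slc1a2 (ENSMUSG00000005089), a sodium-driven glutamate carrier best known from astrocytes, was higher in rATB cells. It stood at 15.8 units in rATB cells (249 reads), against 4.33 in buffer cells (74 reads) and 3.21 in control cells (57 reads). The ratio was 3.65 to buffer (interval 2.81 to 4.80) and 4.94 to the control (interval 3.69 to 6.70). Per length it was a minor carrier, with a mean of 0.593 units per 1000 exonic bases. Slc2a6 (ENSMUSG00000036067), a hexose facilitator found inside cells more than at their surface, was lower. It was at 104 units in rATB cells, against 226 in buffer cells and 264 in control cells. Its ratios were 0.462 to buffer (interval 0.436 to 0.489) and 0.396 to the control (interval 0.374 to 0.419).

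Slc16a10 (ENSMUSG00000019838), a carrier of aromatic amino acids and thyroid hormones, was at 26.4 units in rATB cells, against 53.8 in buffer cells and 55.7 in control cells. Its ratios were 0.491 to buffer (interval 0.436 to 0.552) and 0.473 to the control (interval 0.421 to 0.531). The difference from buffer was -0.99998 on the log2 scale, just short of a call, and a call was made under each other scaling tried. Against the control its call was lost with a pseudocount of 5 units, where the difference was -0.95. Slc9a9 (ENSMUSG00000031129), a sodium-proton exchanger of endosomes, was at 15.5 units in rATB cells, against 27.4 in buffer cells and 41.1 in control cells. The ratio to buffer was 0.566 (interval 0.483 to 0.662) and to the control 0.377 (interval 0.325 to 0.437). Here buffer itself lay below the control, with a ratio of 0.666 (interval 0.592 to 0.749). The macrophage genes C1qa, C1qb, C1qc and Emr1 also took the order rATB, buffer, control from low to high. C1qa was at 134 units in rATB cells, 258 in buffer cells and 386 in control cells. Mertk, Cd68 and Fcgr1 did not take this order. Among the dendritic cell markers named above, Cd74 and H2-Ab1 took it, and Itgax took neither it nor the reverse. Cd86, Ccr7, Flt3 and Zbtb46 took the reverse, though the intervals of rATB for Zbtb46 held 1 against both other libraries. H2-Ab1 was at 543 units in rATB cells, 811 in buffer cells and 1031 in control cells. The part of either cell type in the Slc9a9 difference was not tested.

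The promoters of these 4 genes are shown because these members were called. Each line gives the 250 bases before the transcription start in the RefSeq annotation of GRCm38.p6, 5′ to 3′ on the strand of the gene, with every CG dinucleotide in capitals. The build of the deposited table is unclear, and no value of the table was read from these positions.
Slc1a2, chr2:102706188-102706437, plus strand: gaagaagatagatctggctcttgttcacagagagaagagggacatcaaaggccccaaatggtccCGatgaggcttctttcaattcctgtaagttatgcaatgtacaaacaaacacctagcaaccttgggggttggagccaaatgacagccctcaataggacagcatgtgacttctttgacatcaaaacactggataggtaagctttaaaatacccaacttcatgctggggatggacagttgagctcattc
Slc2a6, chr2:27027999-27028248, minus strand: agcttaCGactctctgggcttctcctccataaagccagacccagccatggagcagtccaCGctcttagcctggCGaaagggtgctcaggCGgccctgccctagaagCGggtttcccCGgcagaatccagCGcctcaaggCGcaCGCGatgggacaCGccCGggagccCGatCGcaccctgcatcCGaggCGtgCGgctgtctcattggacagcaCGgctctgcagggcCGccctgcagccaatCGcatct
Slc16a10, chr10:40142255-40142504, minus strand: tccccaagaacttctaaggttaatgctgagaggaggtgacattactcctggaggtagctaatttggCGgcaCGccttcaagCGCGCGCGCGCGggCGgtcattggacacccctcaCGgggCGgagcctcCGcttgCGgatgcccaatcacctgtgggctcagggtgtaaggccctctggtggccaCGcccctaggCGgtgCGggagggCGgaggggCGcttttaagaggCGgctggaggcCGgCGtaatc
Slc9a9, chr9:94669642-94669891, plus strand: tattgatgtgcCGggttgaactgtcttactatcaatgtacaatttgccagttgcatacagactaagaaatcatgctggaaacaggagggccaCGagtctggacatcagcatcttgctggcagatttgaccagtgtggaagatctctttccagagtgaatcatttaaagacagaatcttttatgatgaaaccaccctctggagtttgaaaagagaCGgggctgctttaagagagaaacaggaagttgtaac
The Slc1a2 window held 1 CG dinucleotide and the Slc9a9 window 3, with 44.8% and 42.8% G or C. The Slc2a6 and Slc16a10 windows held 20 and 21, with 65.2% and 64.4% G or C. Of all 32841 promoters in the table, 7.86% held fewer CG dinucleotides than Slc1a2 and 82.0% fewer than Slc2a6.

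**Figure D3:**
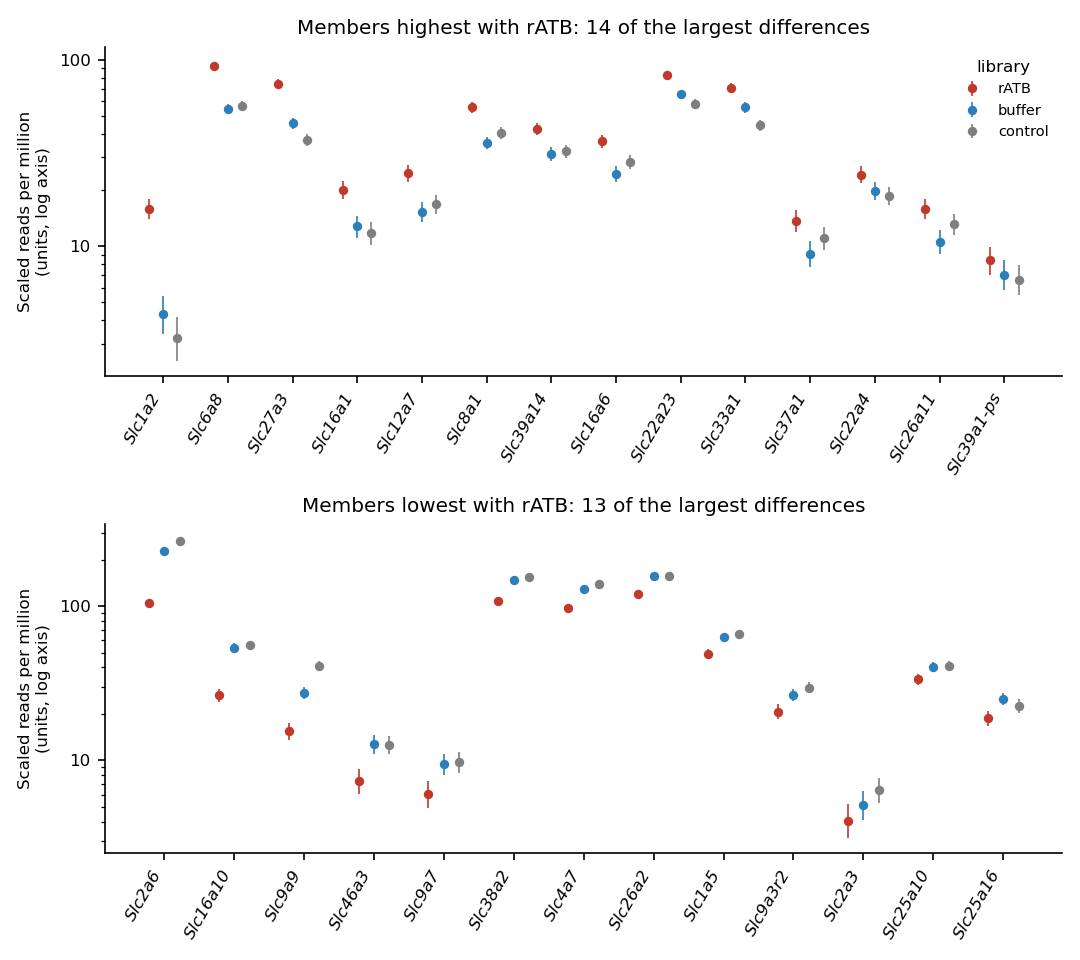
Levels in units on a log y axis for 14 members of at least 5 units with the greatest differences above both other libraries (top) and 13 of those below them (bottom), with 1 point each for rATB, buffer and control and bars for the exact 95% Poisson interval of the count. Slc1a2 stands out at the top with 15.8 units in rATB cells against 4.33 in buffer cells and 3.21 in control cells, and Slc2a6 at the bottom with 104 in rATB cells against 226 in buffer cells and 264 in control cells.

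Carriers were then read by substrate class, taken from the SLC family, with Slc43a3, Slc17a9 and Slc5a6 placed by their own substrates. Among 27 rows of amino acid and peptide carriers (families 1, 3, 6, 7, 15, 36, 38 and 43), rATB was highest in 6 and lowest in 11. Their median difference was 0.02 from buffer, with the sign changed where each library was scaled to its own total, and -0.15 from the control. Of all rows, 33.3% were highest and 44.1% lowest in rATB cells. Of 5 surface carriers of neutral amino acids, 4 were lowest in rATB cells, and Slc1a4 was highest, though not where each library was scaled to its own total. This group was formed with the values known and leaves out other such carriers, among them the steady Slc7a8. Slc1a4 was at 4.83 units in rATB cells, 4.74 in buffer cells and 3.60 in control cells, with intervals that held 1. Slc38a2, which rises in many cells when amino acids run short, was at 108 units in rATB cells, 147 in buffer cells and 155 in control cells, a ratio to buffer of 0.736 (interval 0.692 to 0.783). Slc1a5, a glutamine exchanger, stood at 48.9 units in rATB cells, 63.5 in buffer cells and 65.7 in control cells (ratio to buffer 0.771, interval 0.702 to 0.846). Slc43a2, a carrier of branched-chain and aromatic amino acids, was at 411 units in rATB cells, 431 in buffer cells and 494 in control cells. Slc38a1 was at 96.5 units in rATB cells, 100.4 in buffer cells and 104 in control cells, and its interval against buffer held 1.

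The heavy chain Slc3a2 moved apart from its light chain Slc7a5. Slc3a2 was at 345 units in rATB cells, 295 in buffer cells and 307 in control cells, a ratio to buffer of 1.17 (interval 1.12 to 1.21). Slc7a5, the light chain that carries large neutral amino acids, was at 19.3 units in rATB cells, 22.7 in buffer cells and 24.0 in control cells, with 0.848 as its ratio to buffer (interval 0.727 to 0.988). The light chain Slc7a8 was the steady member of the group, at 139.6 units in rATB cells, 138 in buffer cells and 141 in control cells. Slc7a6 was at 24.4 units in rATB cells, 26.9 in buffer cells and 28.0 in control cells and Slc7a7 at 65.3 units in rATB cells, 58.0 in buffer cells and 66.0 in control cells.

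Carriers of osmolytes and energy stores differed among themselves. Slc6a8, which takes up creatine, came next after Slc1a2 among members above both other libraries, at 92.3 units in rATB cells, 54.3 in buffer cells and 56.4 in control cells. Its ratios were 1.70 to buffer (interval 1.57 to 1.85) and 1.64 to the control (interval 1.51 to 1.78). Slc6a6, the taurine carrier and the member with most reads, was at 576 units in rATB cells, 560.0 in buffer cells and 638 in control cells, and its interval against buffer held 1. The betaine carrier Slc6a12 was at 65.3 units in rATB cells and 63.9 in buffer cells, both below the 86.6 of the control. Slc6a13 was at 11.9 units in rATB cells, 14.2 in buffer cells and 15.2 in control cells. The serotonin carrier Slc6a4 rested on 15 reads in rATB cells against 44 in buffer cells and 41 in control cells (ratio to buffer 0.370, interval 0.191 to 0.678).

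Lysosomal amino acid carriers were near buffer or above it, but buffer itself was low. Of 8 rows of lysosomal carriers of amino acids, peptides and nucleosides, all were below the control in buffer cells, with a median difference of -0.18. Of all 12561 rows past the minimum, 7972 were below the control in buffer cells. Where each library was scaled to its own total, 7 of the 8 were, with a median difference of -0.10. In rATB cells 6 of the 8 were below the control with the deposited scaling, against 7583 of the 12561 rows. Slc36a1, which exports small amino acids with protons, was at 177 units in rATB cells, 142 in buffer cells and 167 in control cells. Its ratios were 1.24 to buffer (interval 1.18 to 1.31) and 1.06 to the control (interval 1.01 to 1.12). Slc15a3 was at 449 units in rATB cells, 416 in buffer cells and 475 in control cells, so the rATB level lay between the others. Slc15a4, its partner in the family, was at 37.1 units in rATB cells, 34.7 in buffer cells and 39.3 in control cells. Slc38a7, which exports glutamine, was at 64.4 units in rATB cells, 65.3 in buffer cells and 72.0 in control cells. Slc38a9, an arginine sensor of the lysosome, was at 36.0 units in rATB cells, 35.0 in buffer cells and 35.9 in control cells in its main row. Its other row (ENSMUSG00000069056), without an entry in the GENCODE release used for lengths, was at 5.47 units in rATB cells, 6.44 in buffer cells and 7.59 in control cells. Slc36a2, a relative of Slc36a1, lay furthest below the control in buffer cells among amino acid carriers, at 58.7 units in rATB cells, 50.5 in buffer cells and 71.6 in control cells.

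The 11 sugar carriers had median differences of 0.04 from buffer and 0.08 from the control, and 1 of them, Slc2a6, was called. The glucose carrier Slc2a3 was low, at 4.07 units in rATB cells, 5.15 in buffer cells and 6.41 in control cells, and its interval against buffer held 1. Slc2a8, an intracellular hexose carrier, was at 19.2 units in rATB cells, 17.8 in buffer cells and 17.2 in control cells, and Slc2a9, a urate carrier, at 13.03 units in rATB cells, 12.6 in buffer cells and 11.8 in control cells. In the family of sugar-phosphate exchangers, Slc37a1 was at 13.7 units in rATB cells, 9.13 in buffer cells and 11.1 in control cells (ratio to buffer 1.503, interval 1.22 to 1.86). Slc37a2, known from macrophages, was at 102 units in rATB cells, 83.7 in buffer cells and 94.96 in control cells. Slc37a4, the glucose phosphate carrier of the endoplasmic reticulum, and Slc37a3 were highest in control cells, with 22.9 and 37.6 units in rATB cells, 22.8 and 40.05 in buffer cells, and 30.2 and 46.7 in control cells. Slc50a1 and Slc45a4 were at 35.3 and 48.0 units in rATB cells, 33.5 and 42.2 in buffer cells, and 33.4 and 47.1 in control cells. The inositol carrier Slc5a3 was at 4.07 units in rATB cells, 3.92 in buffer cells and 3.49 in control cells.

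Of 5 nucleoside carriers, 4 were lowest in rATB cells, although none had intervals below 1 against both other libraries. In all rows past the minimum, 44.1% were lowest in rATB cells. Slc29a1, which lets nucleosides cross the plasma membrane, was at 46.3 units in rATB cells, 48.5 in buffer cells and 62.2 in control cells. Its lysosomal relative Slc29a3 was at 72.7 units in rATB cells, 78.0 in buffer cells and 84.4 in control cells, and the less abundant Slc29a2 at 3.18 units in rATB cells, 4.22 in buffer cells and 4.16 in control cells. Slc43a3, a carrier of purine bases, was at 8.90 units in rATB cells, 14.1 in buffer cells and 9.68 in control cells, so buffer stood out. Slc17a9, which loads ATP into vesicles, was at 6.23 units in rATB cells, 6.09 in buffer cells and 5.91 in control cells. The 18 carriers of the SLC35 family, which bring nucleotide sugars into the Golgi and endoplasmic reticulum, all lay within 0.5 of buffer. Slc35c1, for GDP-fucose, and its relative Slc35c2 were the lowest against the control, at 60.4 and 42.7 units in rATB cells, 67.8 and 49.6 in buffer cells, and 82.9 and 58.5 in control cells. Slc35a3, for UDP-N-acetylglucosamine, was at 31.7 units in rATB cells, 36.0 in buffer cells and 39.3 in control cells. By level alone rATB was highest in 6 of the 18. Only Slc35b4 was above both other libraries by the counting intervals, and not where each library was scaled to its own total. Slc35b4 was at 75.2 units in rATB cells, 68.0 in buffer cells and 68.3 in control cells. Slc35a2, for UDP-galactose, was at 26.8 units in rATB cells, 20.6 in buffer cells and 26.6 in control cells.

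**Figure D4:**
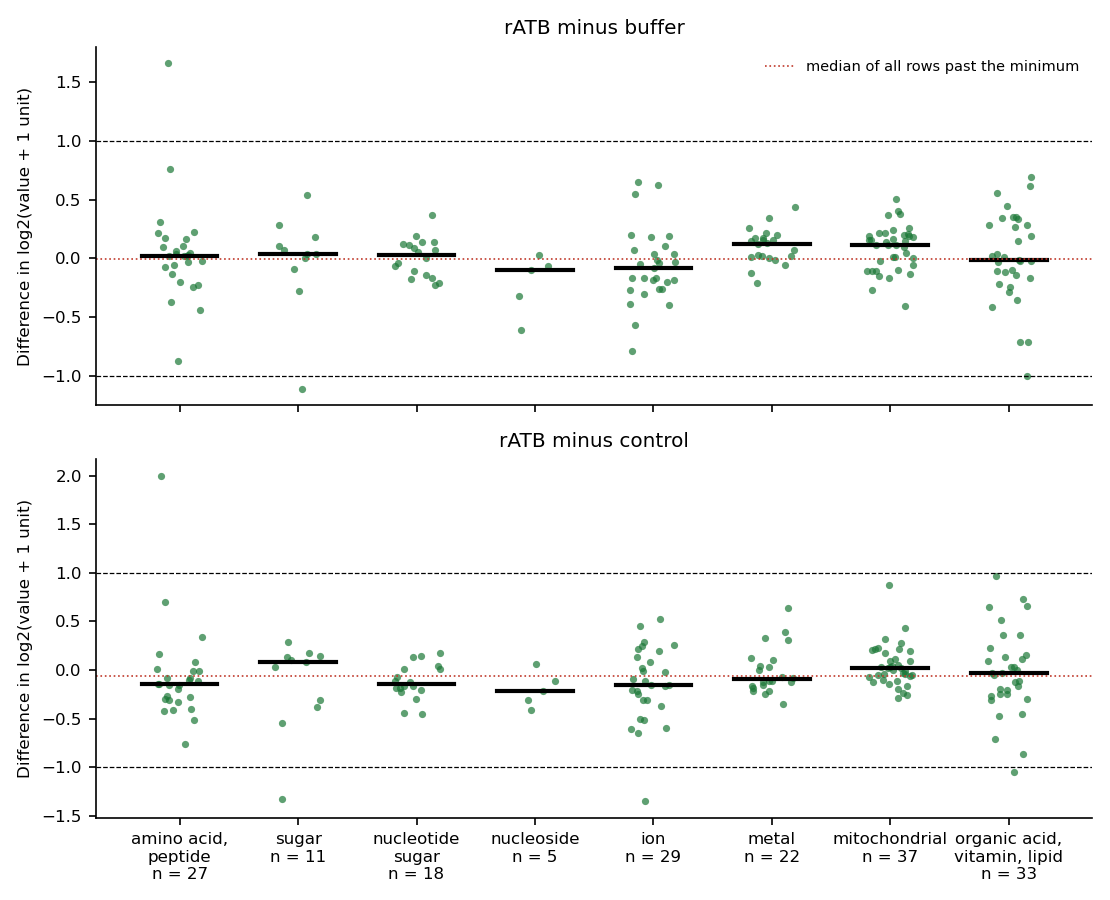
Difference in log2(value + 1 unit) of each carrier between rATB and buffer (top) and rATB and control (bottom) by substrate class, with a thick line at the class median and a dotted line at the median of all rows past the minimum. Class medians lie between -0.10 and 0.13 against buffer and between -0.21 and 0.08 against the control, and the points that reach the dashed lines at 1 and -1 come from the amino acid, sugar, ion and organic acid classes.

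Among 29 ion carriers, rATB was lowest in 15 and highest in 6, against 44.1% and 33.3% of all rows. Their median differences were -0.08 from buffer and -0.15 from the control. The sodium-proton exchangers Slc9a7, Slc9a8 and Slc9a9, which work in organelles, were each lowest in rATB cells. Slc9a7, of the Golgi network, was at 6.04 units in rATB cells, 9.43 in buffer cells and 9.73 in control cells (ratio to buffer 0.640, interval 0.492 to 0.830). Slc9a8 was at 31.3 units in rATB cells, 35.2 in buffer cells and 37.2 in control cells, and Slc9a9 is given above. The surface exchanger Slc9a4 was low, at 3.43 units in rATB cells, 4.04 in buffer cells and 5.34 in control cells. These groups by place in the cell were formed with the values known.

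Bicarbonate, sulfate and phosphate carriers included several of the lower members. Slc4a7, which brings sodium and bicarbonate into cells, was at 97.9 units in rATB cells, 129 in buffer cells and 139.7 in control cells, a ratio to buffer of 0.757 (interval 0.709 to 0.808). Slc26a2, a sulfate carrier, was at 120.2 units in rATB cells, 158 in buffer cells and 156 in control cells (ratio to buffer 0.761, interval 0.718 to 0.808). The phosphate carrier Slc20a1 was at 120.0 units in rATB cells, 144 in buffer cells and 130.1 in control cells, while Slc20a2 was at 15.4 units in rATB cells, 13.3 in buffer cells and 13.3 in control cells. Further anion exchangers were read from fewer counts: Slc26a6 was at 10.3 units in rATB cells, 11.9 in buffer cells and 11.98 in control cells, and Slc26a9 rested on 18 reads in rATB cells, 27 in buffer cells and 40 in control cells. Slc20a1 was below both others by the counting intervals with the deposited scaling alone. Slc4a8 stood highest in buffer cells, at 76.8 units in rATB cells, 87.1 in buffer cells and 65.8 in control cells. Slc4a11 was highest in control cells, at 5.02 units in rATB cells, 5.74 in buffer cells and 8.44 in control cells.

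The ion carriers above both other libraries by the counting intervals in rATB cells were Slc12a7, Slc8a1 and Slc26a11. Slc12a7, a potassium-chloride cotransporter, was at 24.6 units in rATB cells, 15.3 in buffer cells and 16.8 in control cells, a ratio to buffer of 1.60 (interval 1.37 to 1.88). Its relative Slc12a4 was at 64.1 units in rATB cells, 61.0 in buffer cells and 63.3 in control cells. Slc12a2, which imports sodium, potassium and chloride, was low and highest in buffer cells, at 4.13 units in rATB cells, 5.15 in buffer cells and 3.21 in control cells. Slc8a1, the sodium-calcium exchanger, was at 55.5 units in rATB cells, 35.8 in buffer cells and 40.3 in control cells (ratio to buffer 1.55, interval 1.40 to 1.72). Slc26a11, another sulfate carrier, was at 15.9 units in rATB cells, 10.5 in buffer cells and 13.1 in control cells.

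The 22 metal carriers had a narrow spread, and all lay within 0.5 of buffer. Their median difference was 0.13 from buffer and -0.09 from the control. Buffer was the lowest library in 15 of the 22, against 43.1% of members and 35.7% of all rows. The number was 8 of the 22 where each library was scaled to its own total. Slc39a14, which imports zinc, iron and manganese, was the metal carrier furthest above both libraries among those of at least 5 units. It was at 42.6 units in rATB cells, 31.1 in buffer cells and 32.2 in control cells, a ratio to buffer of 1.37 (interval 1.22 to 1.54). Its relative Slc39a8 was at 3.18 units in rATB cells, 2.28 in buffer cells and 1.69 in control cells and Slc39a2 at 5.47 units in rATB cells, 4.74 in buffer cells and 4.16 in control cells, and neither interval against buffer excluded 1. Slc39a1, the most abundant zinc importer per length in this set, was at 142 units in rATB cells, 126 in buffer cells and 142 in control cells. It can exchange reads with its pseudogene Slc39a1-ps, which was at 8.39 units in rATB cells, 7.03 in buffer cells and 6.58 in control cells. Slc30a4, a zinc exporter into vesicles, was below both, at 35.2 units in rATB cells, 40.9 in buffer cells and 41.0 in control cells. Slc30a9, a relative of the zinc exporters, was above both, at 103 units in rATB cells, 89.0 in buffer cells and 96.2 in control cells. Slc48a1 was at 276 units in rATB cells, 252 in buffer cells and 254 in control cells. The copper carriers Slc31a1 and Slc31a2 were highest in control cells, with 77.0 and 85.5 units in rATB cells, 76.4 and 78.3 in buffer cells, and 91.6 and 92.8 in control cells. The magnesium carrier Slc41a2 was at 37.6 units in rATB cells, 33.8 in buffer cells and 30.2 in control cells.

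Mitochondrial carriers of the SLC25 family differed little. Of 37 members, 97.3% lay within 0.5 of buffer, and the median difference was 0.11 from buffer and 0.02 from the control. The rATB library was highest in 19 and lowest in 10, against 33.3% and 44.1% of all rows. The exchange of oxoglutarate and malate is carried out by Slc25a11, which was at 129.1 units in rATB cells, 128.8 in buffer cells and 128.6 in control cells. This member had the smallest spread among those of at least 50 units. The ADP and ATP exchangers went apart: Slc25a4 was at 241 units in rATB cells, 201 in buffer cells and 206 in control cells (ratio to buffer 1.20, interval 1.14 to 1.25), and Slc25a5 at 238 units in rATB cells, 256 in buffer cells and 267 in control cells (ratio to buffer 0.930, interval 0.890 to 0.972). The phosphate carrier Slc25a3 was at 417 units in rATB cells, 388 in buffer cells and 411 in control cells. The mitochondrial iron importer Slc25a28 and the glycine carrier of heme synthesis Slc25a38 were slightly higher in rATB cells. They were at 32.03 and 41.4 units in rATB cells, 27.5 and 36.1 in buffer cells, and 27.7 and 35.6 in control cells. By the counting intervals both lay above both other libraries, though Slc25a28 did not where each library was scaled to its own total. The other iron importer, Slc25a37, was at 68.5 units in rATB cells, 66.4 in buffer cells and 66.4 in control cells.

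The members below both other libraries by the counting intervals in this family were Slc25a5, Slc25a10, Slc25a16 and Slc25a24. Slc25a10, a dicarboxylate carrier, was at 33.4 units in rATB cells, 40.3 in buffer cells and 41.1 in control cells (ratio to buffer 0.829, interval 0.738 to 0.930). Slc25a24, which exchanges ATP-magnesium for phosphate, was at 68.1 units in rATB cells, 76.6 in buffer cells and 78.0 in control cells. Slc25a16 was at 18.7 units in rATB cells, 25.0 in buffer cells and 22.5 in control cells, and was not below both by counting error under total or upper-quartile scaling. Slc25a15, the ornithine carrier, was at 14.1 units in rATB cells, 10.4 in buffer cells and 11.9 in control cells (ratio to buffer 1.35, interval 1.11 to 1.66). Slc25a14 was at 5.72 units in rATB cells, 3.75 in buffer cells and 4.95 in control cells, and Slc25a26, which brings S-adenosylmethionine into mitochondria, at 6.86 units in rATB cells, 5.91 in buffer cells and 5.29 in control cells. Slc25a30 was at 21.2 units in rATB cells, 18.3 in buffer cells and 15.5 in control cells. Slc25a27, which had the fewest reads of all members, rested on 26 reads in rATB cells, 18 in buffer cells and 8 in control cells and cannot be ordered against buffer.

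The 33 carriers of organic acids, vitamins and lipids held members at both ends. Monocarboxylate family members split, with 2 of 7 highest and 5 of 7 lowest in rATB cells by level alone, under each scaling. Over all rows rATB was highest in 33.3% and lowest in 44.1%. By the counting intervals, 2 of the 7 were above both other libraries and 2, Slc16a10 and Slc16a14, below both. Slc16a5 rested on 15 reads in rATB cells, 17 in buffer cells and 24 in control cells. Slc16a1, which moves lactate and pyruvate, was at 20.1 units in rATB cells, 12.8 in buffer cells and 11.7 in control cells, a ratio to buffer of 1.57 (interval 1.32 to 1.88). Slc16a6 was at 36.4 units in rATB cells, 24.5 in buffer cells and 28.2 in control cells (ratio to buffer 1.49, interval 1.31 to 1.69). Slc16a7 and Slc16a13 were at 7.75 and 8.14 units in rATB cells, 8.49 and 9.25 in buffer cells, and 11.0 and 11.7 in control cells. Slc16a14 rested on 8 reads in rATB cells, against 25 in buffer cells and 31 in control cells. Slc16a10 belongs to this family, although its substrates are amino acids.

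All 3 expressed fatty acid transport proteins were highest in rATB cells, as were 33.3% of all rows. Slc27a3 was at 74.0 units in rATB cells, 45.6 in buffer cells and 37.2 in control cells, a ratio of 1.63 to buffer (interval 1.48 to 1.78) and 1.99 to the control (interval 1.81 to 2.19). Its difference from the control was 0.97, just under a call, and it was called under each other scaling tried. Slc27a1 was at 74.9 units in rATB cells, 58.3 in buffer cells and 67.4 in control cells. Slc27a4 was at 51.0 units in rATB cells, 41.7 in buffer cells and 47.9 in control cells, and its interval against the control held 1. Slc33a1, which brings acetyl-CoA into the endoplasmic reticulum, was at 70.4 units in rATB cells, 55.4 in buffer cells and 44.4 in control cells (ratio to buffer 1.27, interval 1.16 to 1.39). In this gene buffer also exceeded the control, with a ratio of 1.25 (interval 1.13 to 1.37). The orphan carrier Slc22a23 was at 82.8 units in rATB cells, 65.2 in buffer cells and 57.8 in control cells, and the ergothioneine carrier Slc22a4 at 24.2 units in rATB cells, 19.7 in buffer cells and 18.7 in control cells. The carnitine carrier Slc22a5 was at 10.8 units in rATB cells, 12.9 in buffer cells and 13.1 in control cells. Slc22a4, Slc22a5 and Slc22a21 are close relatives, so reads may be shared among them.

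**Figure D5:**
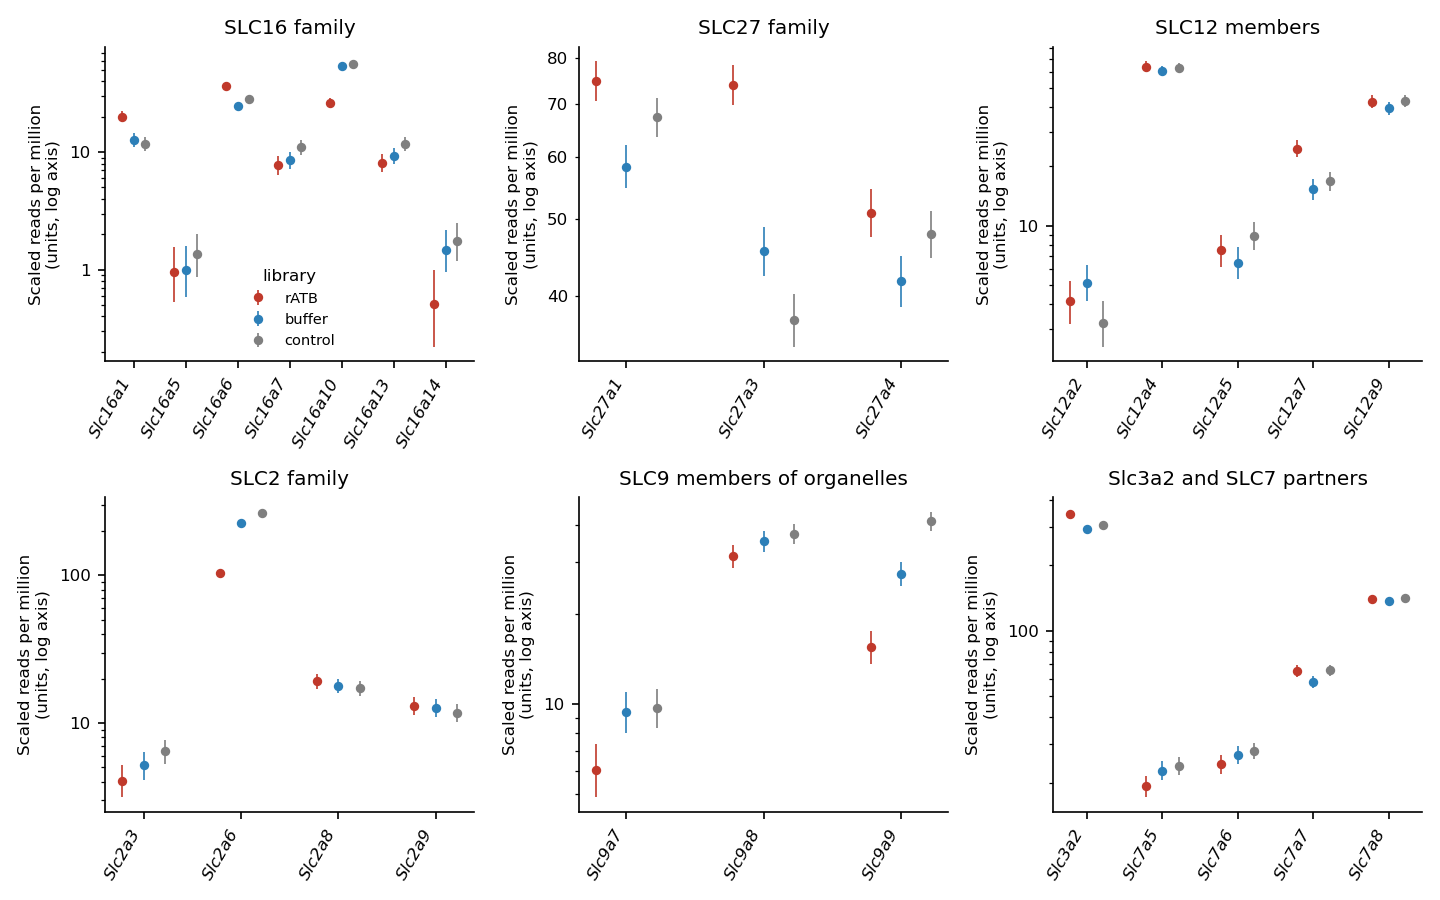
Levels in units on log y axes for 6 groups of related members, with points for rATB, buffer and control from left to right and bars for the exact 95% Poisson interval of the count. Slc16a1 and Slc16a6 are highest in rATB cells while Slc16a10 is lowest at 26.4 units, the 3 SLC27 members are highest in rATB cells, and the SLC9 members drawn are lowest in rATB cells.

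Vitamin carriers were mostly near or below the other libraries. Slc46a3, a lysosomal relative of the folate carriers, was at 7.37 units in rATB cells, 12.7 in buffer cells and 12.7 in control cells, a ratio to buffer of 0.580 (interval 0.459 to 0.730). Slc46a1, the proton-coupled folate carrier, went the other way at 3.94 units in rATB cells, 2.87 in buffer cells and 2.14 in control cells, with an interval against buffer that held 1. The riboflavin carrier Slc52a2 was at 13.3 units in rATB cells, 17.3 in buffer cells and 16.0 in control cells. Slc23a2, which takes up ascorbate, was steady at 105.6 units in rATB cells, 102.5 in buffer cells and 103.6 in control cells. The choline carriers Slc44a1 and Slc44a2 were at 43.3 and 76.1 units in rATB cells, 42.6 and 63.0 in buffer cells, and 43.2 and 69.3 in control cells. The sialic acid exporter of lysosomes Slc17a5 was at 56.3 units in rATB cells, 49.1 in buffer cells and 57.4 in control cells. Of the members that name no carrier, the scaffold Slc9a3r1 was at 92.3 units in rATB cells, 73.3 in buffer cells and 84.4 in control cells, and Slc9a3r2 at 20.7 units in rATB cells, 26.5 in buffer cells and 29.6 in control cells.

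Between buffer and control, where no rATB was present, the greatest differences were those of Slc9a9, Slc12a2, Slc25a27, Slc43a3 and Slc36a2. By the counting intervals, 63 members were lower in buffer cells than in control cells and 8 were higher, or 33.5% and 4.26%, while over all rows 21.9% were lower and 5.64% higher. This count depended on the scaling: it was 31 lower and 16 higher where each library was scaled to its own total, and 40 lower and 11 higher with TMM factors. For 3 of the 5 named members the level in buffer cells was the higher, with a ratio of 1.46 for Slc43a3 (interval 1.19 to 1.78) and 1.61 for Slc12a2 (interval 1.14 to 2.28). For Slc36a2 the ratio of buffer to control was 0.705 (interval 0.646 to 0.770). The greatest of these differences was -0.57 on the log2 scale, for Slc9a9.

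Genes that work with these carriers under other symbols were read alongside. Bsg and Emb, the chaperones that bring monocarboxylate carriers to the surface, were both highest in rATB cells. Emb was at 1061 units in rATB cells, 762 in buffer cells and 812 in control cells, and Bsg at 386 units in rATB cells, 281 in buffer cells and 317 in control cells. Among 6 lysosomal carriers with other symbols rATB was highest in 2, with Ctns, the cystine exporter, at 62.5 units in rATB cells, 50.5 in buffer cells and 59.7 in control cells. Of 11 genes of lysosomal amino acid sensing, 5 were highest and 1 was lowest in rATB cells. The arginine sensor gene Castor1, named Gatsl3 in the table, was the furthest above both, at 10.7 units in rATB cells, 5.09 in buffer cells and 4.78 in control cells. Of 6 genes for mitochondrial pyruvate and serine carriers, 2 were highest and 2 lowest in rATB cells. The shares over all rows were 33.3% highest and 44.1% lowest in rATB cells.

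Promoter windows of 250 bases were found for 140 of the 188 members, 189 windows in all. The letters CACGTG, read on both strands, occurred in 12.7% of member windows, in 8.45% of the windows of all rows past the minimum and in 6.02% of all windows. Members with it included Slc16a1, Slc36a1, Slc38a7, Slc12a7, Slc33a1, Slc20a1, Slc29a1 and Slc37a3. Any link of these letters to the direction of a difference was not tested. The letters TGACNNNGC occurred in 15.3% of member windows and 11.9% of those of all rows past the minimum, among them Slc16a1, Slc38a2 and Slc46a3. The letters TGATGCAA occurred in 2 member windows, those of Slc7a7 and Slc50a1. This was 1.06% of member windows, against 0.547% of those of all rows past the minimum and 0.792% of all windows. The 4 windows printed above held none of these 3 motifs. A match is a run of letters and no measured site.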

How the data were processed

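RNA extracted with TRIzol was made into libraries by TruSeq RNA v2, which does not mark strand, and sequenced in 150-bp pairs, per the labels' protocols. TopHat2 2.0.13 aligned the reads, per the submitters' processing notes, which name a human build beside mouse identifiers, so the build is unclear. The sources used here name no counter, annotation or scaling method. The authors deposited log2 values in 1 column per library, with a spreadsheet error for the log2 of 0. Their linear values were whole multiples of the smallest value of their column, for 100% of values at a tolerance of 1e-06. They were therefore read as counts times a factor of 1.13 for rATB, 1.04 for buffer and 1 for control. The planned design had not foreseen this unit.

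Python 3.11.15, pandas 2.3.3 and scipy 1.17.1 were used. Ratios have exact conditional (Clopper-Pearson) 95% intervals. A level at 0 reads could reach 0.191 units for rATB, 0.176 for buffer and 0.169 for control (3 counts). Calls were run on counts simulated with Poisson error alone, with planted changes larger than a call in rows of at least 5 units. That checks the code and does not measure variation between cultures. Exon lengths came from GENCODE M21. Members, gene lists and classes were chosen with earlier results of these data known, and 4 rows were moved out of the carrier classes after their names were seen. Named members were those called, the 20 largest differences each way among members of at least 5 units, up to 3 more per class, the 3 steadiest of at least 50 units and the 5 largest differences of buffer from control. Other members were named after their values were seen. A few members and other genes are not reported here. Alternatives were other pseudocounts, filters and scalings.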

Additional observations from a re-analysis of the deposited data

How the results depend on the processing

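No paired analysis was possible because each group was a single library, and for the same reason no replicate could be left out. With a pseudocount of 0.1 unit, 4 members were called lower against buffer. Against the control 2 were then called higher and 5 lower, and 1 was higher with buffer than in the control. With no filter on level, 2 were called higher against buffer, and the median difference of sugar carriers between buffer and control was 0.00313, against -0.18 as reported. With each library scaled to its total, with TMM factors computed here without a package, and with upper-quartile factors, 2 members were called lower against buffer and 2 higher against the control. Under these 3 scalings Slc16a10 was the member added against buffer and Slc27a3 the member added against the control. The remaining class and member medians moved by less than 0.1 under every alternative run, though several near 0 changed sign. Members above both other libraries by counting error numbered 26 to 29 under the 3 scalings, with 23 to 25 of the 25 reported kept. Those below numbered 22 to 28, with 22 to 23 of the 25 kept. Intervals are wide for members of few reads, among them Slc25a27 and Slc16a14.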
